A study of Rattus norvegicus with 4 samples.

Results

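The solute carriers are the large superfamily of membrane proteins that move sugars, amino acids, ions, metals and metabolites across the plasma membrane and the membranes of organelles. The genes described here are the rows of the gene table whose symbol begins with Slc, a family number, a letter and a member number, with the red cell anion exchanger Slc4a1 left out. They number 290 of the 13554 genes in the table. Of these, 4 are named after a carrier without being carriers themselves: Slc9a3r1 and Slc9a3r2, scaffold proteins that bind a sodium-proton exchanger, and Slc4a1ap and Slc7a6os. Transcripts were counted in articular cartilage, which covers the bone ends in joints, and in xiphoid cartilage, the cartilage tip of the breastbone. Each tissue had 2 libraries, all from Sprague-Dawley rats with a labelled age of 8 to 10 weeks and with no treatment or genotype label. The labels name neither the joint nor the animals behind a library. The p-values thus measure the spread between these libraries, estimated partly from other genes, and this spread may be technical.

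Cartilage has no blood vessels of its own, and its chondrocytes take up nutrients that diffuse through a dense matrix. They rely largely on glycolysis, importing glucose through carriers of the Slc2 family and exporting lactate with protons through carriers of the Slc16 family. The sulfated chains of aggrecan need sulfate import, a carrier that brings the activated sulfate donor PAPS into the Golgi, and Golgi carriers of nucleotide sugars. Phosphate carriers matter where cartilage mineralizes, and zinc is needed by the matrix metalloproteinases.

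The libraries held 7351005 to 8434821 counts, of which the members took 0.775% and 0.794% in articular and 0.832% and 0.85% in xiphoid cartilage. Levels are given as CPM, counts per 1000000 of the library size after scaling. All 10 listed chondrocyte markers had counts in every library. Of them 6 were higher in articular cartilage, and 2, Cnmd and Comp, in xiphoid cartilage by the test described next. Their summed level was 125972 and 107779 CPM in the articular libraries and 32579.5 and 30958 CPM in the xiphoid libraries, to which Col2a1 gave the most. The tissues also carried markers of other cells. By the same test, 10 of 10 skeletal muscle markers and 7 of 7 adipocyte markers were higher in xiphoid cartilage, with sums of 34.5 and 24.8 CPM in articular against 8678 and 8799 CPM in xiphoid cartilage and of 81.6 and 65.5 CPM in articular against 2898 and 2265 CPM in xiphoid cartilage. Pvalb, Myh2 and Lep had no count in articular cartilage. Fibroblast and perichondrium markers also moved with the xiphoid libraries, 4 of 7, with 1, Dcn, toward articular cartilage. Their sums were 1156 and 1227 CPM in articular against 14707 and 13543 CPM in xiphoid cartilage. Gsn gave 94.4% and 94.1% of the xiphoid sums, but 30.4% and 27.5% of the articular sums. On the articular side were 5 of 5 tested neutrophil markers (163 and 166 CPM in articular against 1.06 and 0.137 CPM in xiphoid cartilage), 5 of 5 osteoclast markers (1923 and 2011 CPM in articular against 151 and 142 CPM in xiphoid cartilage) and 6 of 7 osteoblast markers (8794 and 8061 CPM in articular against 5978 and 6509 CPM in xiphoid cartilage). The osteoblast sums are mostly Col1a1, the marker that did not pass; among the called ones, Bglap was at 507 and 414 CPM in articular against 5.29 and 6.03 CPM in xiphoid cartilage. In xiphoid cartilage, Camp, Ngp, Mmp8, Cd177, Atp6v0d2, Calcr, Phex and Sost had no count. In bulk tissue, fewer cells of a type and less RNA per cell cannot be told apart, and the part of these cells in the values below was not tested except where stated.

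Solute carriers differed between the cartilages about as often as other genes, with more calls toward xiphoid cartilage. Of the 290 members 213 passed the filter on low counts. Among them 46 were called toward articular cartilage and 64 toward xiphoid cartilage, while 103 did not pass an adjusted p of 0.05 (edgeR quasi-likelihood test, Benjamini-Hochberg adjustment over all 11202 genes tested). Together 51.6% of the tested members were called, against 49.5% of all genes. In the articular direction it was 21.6% of members against 25% of all genes, and in the xiphoid direction 30% against 24.5%. The median log2 fold change, articular over xiphoid cartilage, was -0.24 over the tested members and -0.02 over all genes. A fitted fold above 2 was seen for 32 members called toward articular cartilage, where the share of all genes was 15.6%, and for 37 called toward xiphoid cartilage, where it was 13.6%. The libraries of the tissues did not overlap for 170 of the 213, or 79.8%, against 74.9% of all genes tested. Of the tested members, 9 cleared the count cutoff in both articular libraries only and 17 in both xiphoid libraries only. For these the filter itself favours a difference, and 7 and 9 of them were called. With no filter, all 290 members were tested, and 48 were called toward articular and 65 toward xiphoid cartilage. Of all 13553 genes tested in that way, 2991 were called toward articular and 2850 toward xiphoid cartilage.

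**Figure D1:**
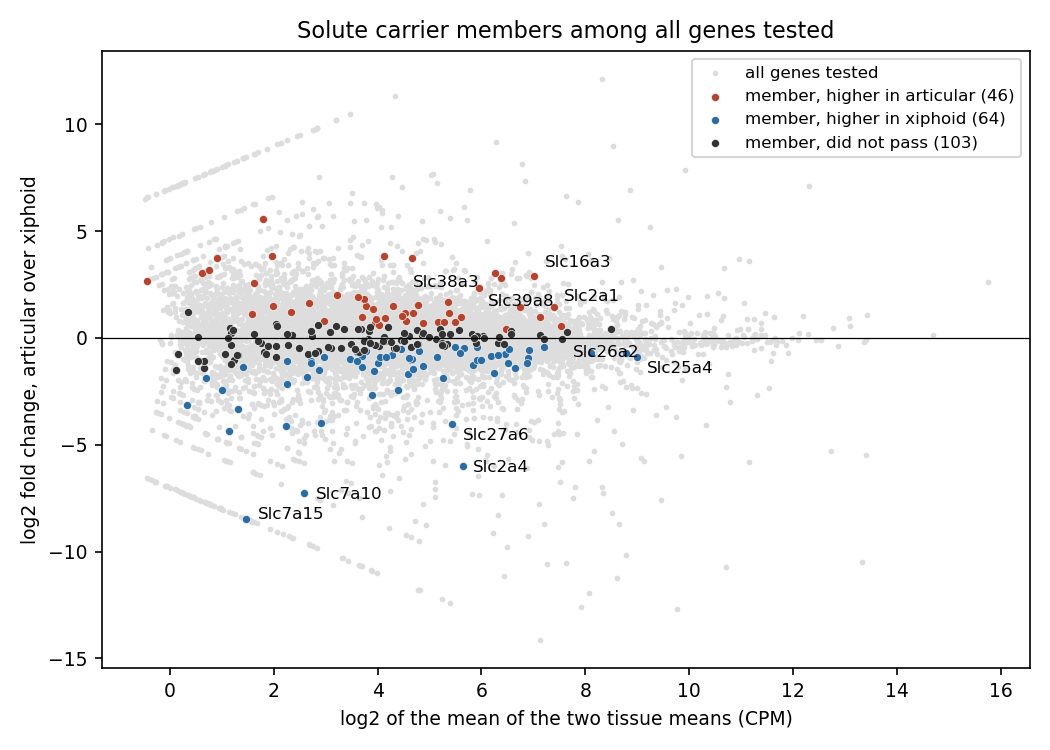
Log2 fold change of each tested gene, articular over xiphoid cartilage, against the log2 of its mean level in CPM. Grey points are all 11202 genes tested. Coloured points are the members: 46 called toward articular cartilage, 64 called toward xiphoid cartilage and 103 that did not pass, spread on each side of 0.

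Levels below are CPM given for replicates 1 and 2 in that order. They compare a gene with itself between tissues; since they are not divided by transcript length, they do not rank genes against each other. Differences are given as the log2 change, the log2 fold change of articular over xiphoid cartilage ± its standard error. Positive values thus lie on the articular side. Counts of calls in each list below are to be read beside the shares of all genes. These were 25% toward articular and 24.5% toward xiphoid cartilage.

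**Figure D2:**
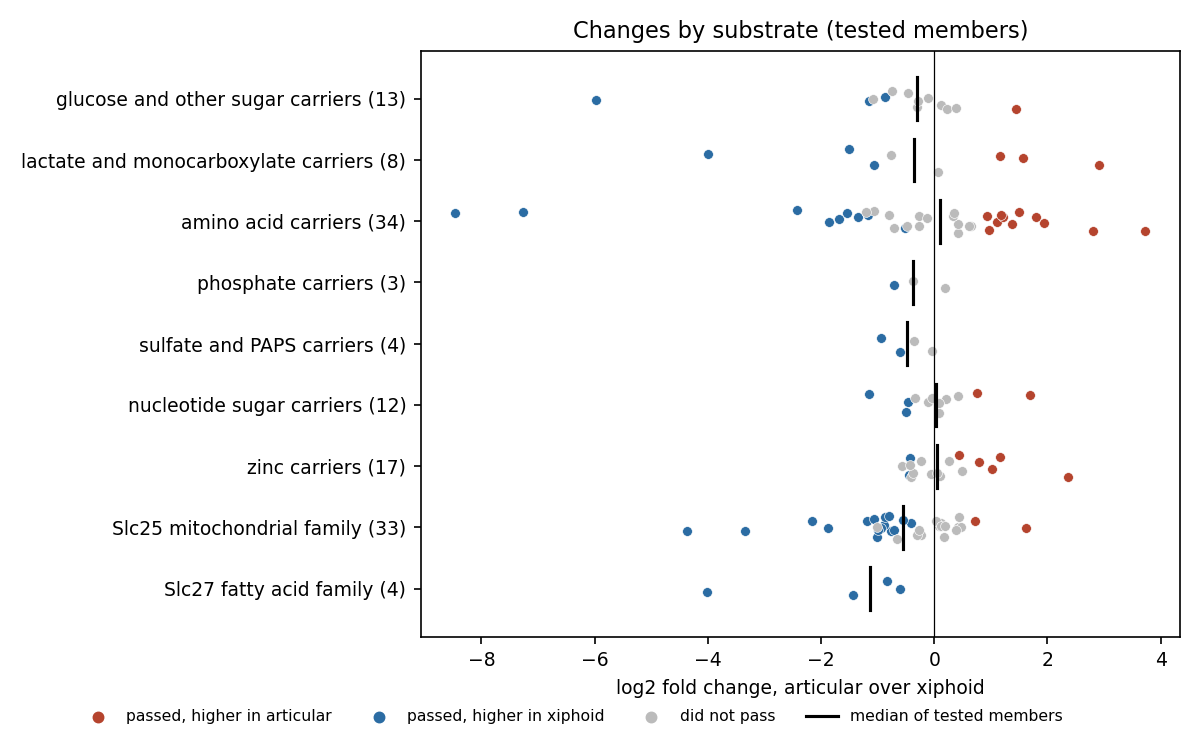
Log2 fold change of the tested members by substrate list, with the Slc25 and Slc27 families in the lowest rows. Each point is a gene, coloured where it passed an adjusted p of 0.05, and the black bar is the median of the tested members. The lactate, amino acid and zinc lists hold called members on each side, while the 4 tested Slc27 genes lie on the xiphoid side.

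The glucose importers GLUT1 and GLUT4 differed in opposite directions. Slc2a1 (Entrez gene 24778) encodes GLUT1, the widespread high-affinity glucose importer of brain vessels and chondrocytes. Slc2a1 stood at 251 and 241 CPM in articular cartilage, against 93.6 and 86.9 CPM in xiphoid cartilage. It was 2.73-fold higher in articular cartilage (log2 change 1.45 ± 0.14, adjusted p = 5.72e-06). Slc2a4 (Entrez gene 25139), which encodes GLUT4, the insulin-responsive importer of skeletal muscle and fat, went the other way, at 1.32 and 1.80 CPM in articular cartilage, against 96.9 and 99.7 CPM in xiphoid cartilage. That is 62.8-fold higher in xiphoid cartilage (log2 change -5.97 ± 0.23, adjusted p = 1.63e-09), with both articular libraries near 0. The markers of skeletal muscle and adipocytes, the cells for which GLUT4 is known, were higher in the same xiphoid libraries (values above), and their part in the Slc2a4 difference was not tested. Slc2a3, the GLUT3 of neurons, was low in every library, at 1.56 and 3.34 CPM in articular and 2.47 and 1.64 CPM in xiphoid cartilage, and the libraries overlapped (adjusted p = 0.745). Slc2a10 encodes GLUT10, a carrier mutated in human arterial tortuosity. It was at 30.1 and 30.2 CPM in articular and 25.6 and 30.0 CPM in xiphoid cartilage and did not pass (adjusted p = 0.617). Slc2a5, the fructose carrier GLUT5, had 9 counts in articular and 8 in xiphoid cartilage and was not tested.

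Of the 13 tested sugar carriers, 1 was called toward articular and 3 toward xiphoid cartilage, 9 did not pass, and the median log2 fold change was -0.31. Besides Slc2a4, the xiphoid side held carriers of myo-inositol, a sugar alcohol used as an osmolyte. Slc5a3 encodes the sodium-coupled myo-inositol carrier. It had 82.1 and 64.6 CPM in articular cartilage, against 168 and 158 CPM in xiphoid cartilage (log2 change -1.15 ± 0.16, adjusted p = 9.47e-05). The proton-coupled Slc2a13 was at 9.33 and 14.0 CPM in articular cartilage, against 20.2 and 22.6 CPM in xiphoid cartilage (log2 change -0.88 ± 0.24, adjusted p = 0.00901). In both, all xiphoid libraries lay above all articular libraries. The members that did not pass included Slc2a8, Slc2a9, Slc2a12 and Slc2a6. Summed over the list, levels were close, at 426 and 411 CPM in the articular libraries and 468 and 471 CPM in the xiphoid libraries.

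Enzymes that act on imported glucose were measured from a list of 9 genes, of which 8 were tested, with 3 called on each side. Hk2 encodes the inducible hexokinase that traps glucose as its phosphate. It stood at 28.6 and 21.2 CPM in articular cartilage, against 8.47 and 4.52 CPM in xiphoid cartilage (a 3.79-fold excess in articular cartilage, adjusted p = 0.000167), while the housekeeping hexokinase Hk1 was at 142 and 126 CPM in articular and 119 and 116 CPM in xiphoid cartilage and did not pass (adjusted p = 0.323). Txnip encodes a protein that lowers GLUT1 and GLUT4 at the cell surface. It was at 249 and 279 CPM in articular cartilage, against 764 and 829 CPM in xiphoid cartilage, or 3.02-fold higher in xiphoid cartilage (adjusted p = 3.47e-06). The sorbitol pathway enzymes Akr1b1 (83.3 and 114 CPM in articular against 183 and 195 CPM in xiphoid cartilage, adjusted p = 0.000647) and Sord (14.2 and 11.7 CPM in articular against 72.9 and 55.3 CPM in xiphoid cartilage, adjusted p = 1.92e-06) were higher in xiphoid cartilage. Pfkfb3, which drives glycolysis through a signalling sugar, was at 107 and 104 CPM in articular against 77.4 and 78.5 CPM in xiphoid cartilage (adjusted p = 0.0252). Its adjusted p became 0.179 with xiphoid replicate 1 left out and 0.154 with xiphoid replicate 2 left out. Hk3, the hexokinase of white blood cells, was at 1.67 and 1.67 CPM in articular against 0.470 and 0.274 CPM in xiphoid cartilage (adjusted p = 0.026). That call was lost with DESeq2 and with any library left out, the adjusted p being 0.109 with DESeq2, 0.084 with articular replicate 1 left out, 0.0795 with articular replicate 2 left out, 0.11 with xiphoid replicate 1 left out and 0.198 with xiphoid replicate 2 left out.

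The lactate carriers MCT4 and MCT1 were both higher in articular cartilage. Slc16a3 (Entrez gene 80878) encodes MCT4, the lactate exporter of glycolytic cells. It had 291 and 166 CPM in articular cartilage, against 33.7 and 27.0 CPM in xiphoid cartilage. It was 7.52-fold higher in articular cartilage (log2 change 2.91 ± 0.26, adjusted p = 1.09e-05), and although the articular libraries differed from each other, both lay far above the xiphoid pair. Slc16a1 (Entrez gene 25027) encodes the widespread lactate carrier MCT1. It stood at 41.3 and 41.0 CPM in articular cartilage, against 15.3 and 12.5 CPM in xiphoid cartilage, or 2.95-fold higher in articular cartilage (log2 change 1.56 ± 0.19, adjusted p = 3.28e-05). Slc16a7, the high-affinity carrier MCT2, was low in both tissues, at 2.51 and 6.04 CPM in articular and 8.23 and 9.59 CPM in xiphoid cartilage, with the xiphoid libraries higher (log2 change -1.06 ± 0.38, adjusted p = 0.0336). That call was not stable: the adjusted p was 0.0699 with DESeq2, 0.21 with articular replicate 1 left out and 0.0632 with xiphoid replicate 2 left out, while the log2 fold change was -1.82 with articular replicate 2 left out. Slc16a8, the MCT3 of retinal epithelium, was under 2.1 CPM in every library and did not pass (adjusted p = 0.941).

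The list of lactate and other monocarboxylate carriers had 8 tested members, 3 higher in each tissue, with a median log2 fold change of -0.35. Slc16a4, whose substrate is not well settled, was the remaining articular call, at 27.4 and 35.8 CPM in articular cartilage, against 14.1 and 14.2 CPM in xiphoid cartilage (log2 change 1.15 ± 0.21, adjusted p = 0.000612). On the xiphoid side, Slc16a14 encodes a family member of unclear substrate. It was at 0.479 and 1.28 CPM in articular cartilage, against 12.5 and 15.8 CPM in xiphoid cartilage (log2 change -3.99 ± 0.41, adjusted p = 7.41e-06), and its log2 fold change was -4.83 with articular replicate 2 left out. The summed level of the list was 372 and 258 CPM in the articular libraries and 101 and 92.6 CPM in the xiphoid libraries.

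Of 4 listed partners of these carriers, 2 were higher in each tissue. Bsg encodes basigin, the chaperone that brings MCT1 and MCT4 to the membrane. It had 1974 and 1575 CPM in articular cartilage, against 831 and 801 CPM in xiphoid cartilage (a 2.17-fold excess in articular cartilage, adjusted p = 0.000117). Emb, embigin, the chaperone that MCT2 prefers, was at 35.8 and 39.9 CPM in articular cartilage, against 79.4 and 82.9 CPM in xiphoid cartilage (a 2.14-fold excess in xiphoid cartilage, adjusted p = 0.000107). Ldha encodes the lactate dehydrogenase chain of glycolytic tissue. It stood at 1952 and 2069 CPM in articular cartilage, against 1138 and 1112 CPM in xiphoid cartilage (adjusted p = 0.000544), and Ldhb, the chain of oxidative tissue such as heart, was at 33.3 and 42.0 CPM in articular cartilage, against 230.0 and 243 CPM in xiphoid cartilage (adjusted p = 1.00e-07). For all 4 the tissues did not overlap.

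**Figure D3:**
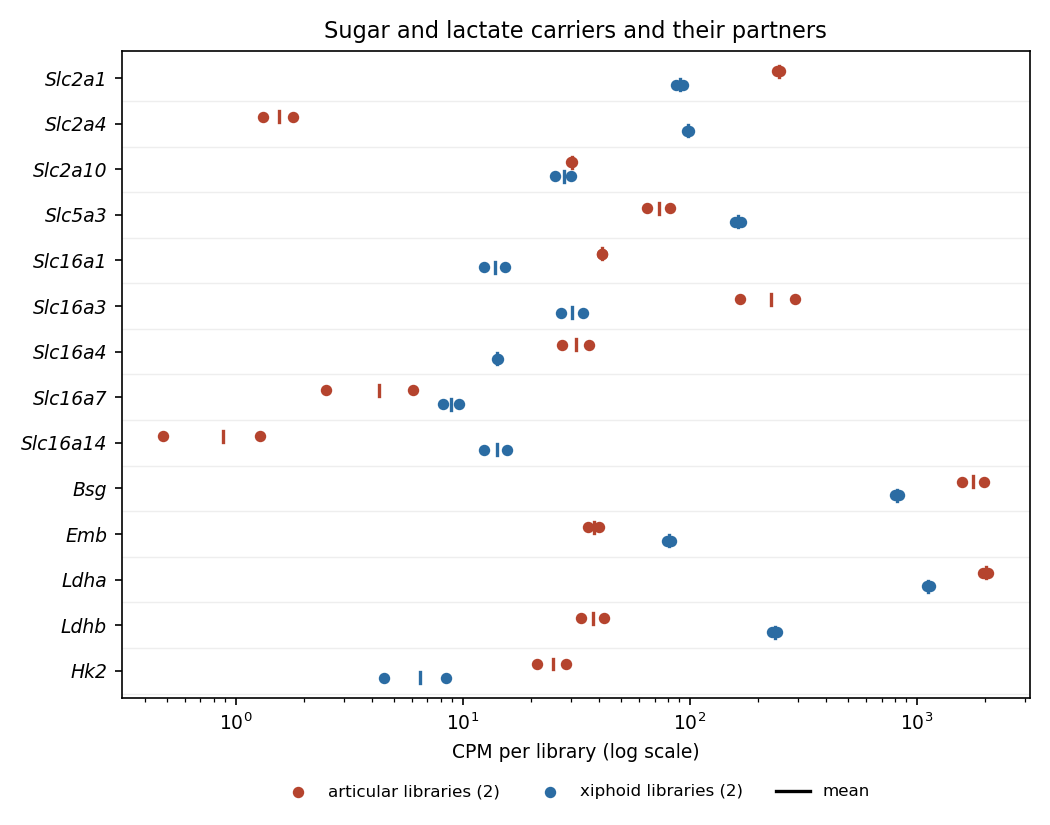
CPM of each library on a log axis for sugar and lactate carriers and their partners, with articular libraries above xiphoid libraries for each gene and the mean as a bar. Slc2a1, Slc16a1, Slc16a3, Bsg and Ldha lie higher in articular cartilage, and Slc2a4, Slc5a3, Emb and Ldhb higher in xiphoid cartilage.

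Since the glucose importer and the lactate carriers MCT1 and MCT4 were higher in the same libraries, the promoter windows of their genes are shown. Each runs from 250 bases before to 50 after the annotated start (RefSeq, build GRCr8, plus strand), with capitals marking the letters ACGTG, the core of the hypoxia response element, on either strand:
Slc2a1: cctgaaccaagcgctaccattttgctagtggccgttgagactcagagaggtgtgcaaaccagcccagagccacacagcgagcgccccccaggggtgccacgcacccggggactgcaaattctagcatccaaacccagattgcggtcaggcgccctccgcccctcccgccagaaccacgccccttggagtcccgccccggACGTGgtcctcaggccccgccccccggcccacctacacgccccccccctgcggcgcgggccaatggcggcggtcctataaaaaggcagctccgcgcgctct
Slc16a1: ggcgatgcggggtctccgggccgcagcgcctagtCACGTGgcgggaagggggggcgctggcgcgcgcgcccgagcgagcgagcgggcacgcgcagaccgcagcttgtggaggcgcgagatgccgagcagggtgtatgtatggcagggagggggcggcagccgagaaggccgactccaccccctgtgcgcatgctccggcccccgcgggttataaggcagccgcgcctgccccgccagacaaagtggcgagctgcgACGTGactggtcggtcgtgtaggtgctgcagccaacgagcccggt
Slc16a3: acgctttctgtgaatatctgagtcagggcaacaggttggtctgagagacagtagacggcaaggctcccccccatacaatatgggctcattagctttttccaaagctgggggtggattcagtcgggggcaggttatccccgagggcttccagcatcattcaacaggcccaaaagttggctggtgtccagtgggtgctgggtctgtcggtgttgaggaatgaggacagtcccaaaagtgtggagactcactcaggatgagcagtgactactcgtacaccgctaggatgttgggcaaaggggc
The windows lie at chr5:138002272-138002571, chr2:194812410-194812709 and chr10:106712078-106712377. The Slc2a1 window held 1 match and the Slc16a1 window 3, of which a pair overlap in a palindrome read on both strands. The Slc16a3 window held 0, which says only that these letters are not in this window. The core is short: it was in 19.7% of the 27457 promoters in the RefSeq set and in 62 of the 226 members with a promoter there, or 27.4%. Among members with a promoter it was in 9 of 32 higher in articular cartilage, in 13 of 53 higher in xiphoid cartilage and in 24 of 82 that did not pass.

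Amino acid carriers, the longest list, were called in both directions. Of 34 tested, 11 were called toward articular and 9 toward xiphoid cartilage; 14 did not pass. Together 58.8% were called, against 49.5% of all genes, with a median log2 fold change of 0.10. Their summed level was 1047 and 1148 CPM in the articular libraries and 830.2 and 891 CPM in the xiphoid libraries. Slc38a3 (Entrez gene 252919) encodes SNAT3, a sodium-coupled carrier of glutamine, histidine and asparagine known from liver, kidney and astrocytes. It was at 147 and 142 CPM in articular cartilage, against 19.5 and 22.1 CPM in xiphoid cartilage. It was 6.96-fold higher in articular cartilage (log2 change 2.80 ± 0.16, adjusted p = 5.32e-08), with replicates close in each tissue. Slc38a2, SNAT2, the carrier of small neutral amino acids induced by starvation and osmotic stress, was at 361 and 469 CPM in articular cartilage, against 290.2 and 332 CPM in xiphoid cartilage. It narrowly missed the threshold (log2 change 0.42 ± 0.16, adjusted p = 0.0523). In some settings it passed. The adjusted p was 0.0375 with upper-quartile factors, 0.0301 with no low-count filter and 0.0488 with a mean CPM of at least 5. With ribosomal RNA rows left out it was 0.0436, and with the replicate block 3.06e-05. DESeq2, limma-voom, RLE factors, library sizes alone and leaving out the listed cell markers kept Slc38a2 above the threshold. Its log2 change was 0.60 with articular replicate 1 left out. Slc38a1 was at 75.7 and 81.4 CPM in articular and 92.2 and 96.6 CPM in xiphoid cartilage and did not pass (adjusted p = 0.16), while Slc38a4, a carrier best known from liver, was at 22.1 and 19.1 CPM in articular cartilage, against 6.94 and 4.79 CPM in xiphoid cartilage (log2 change 1.80 ± 0.26, adjusted p = 0.000105).

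Neutral amino acid exchangers of the Slc1 family parted. Slc1a4 encodes ASCT1, a carrier of serine, alanine, cysteine and threonine. It had 21.7 and 18.9 CPM in articular cartilage, against 6.11 and 8.22 CPM in xiphoid cartilage, or 2.84-fold higher in articular cartilage (log2 change 1.51 ± 0.24, adjusted p = 0.000286). Slc1a5 encodes the close relative ASCT2, a main glutamine importer of growing cells. It stood at 9.69 and 13.1 CPM in articular cartilage, against 36.8 and 35.9 CPM in xiphoid cartilage, or 3.19-fold higher in xiphoid cartilage (log2 change -1.68 ± 0.21, adjusted p = 3.66e-05). For neither gene did the libraries of the tissues overlap. The glutamate carriers Slc1a1 (adjusted p = 0.241) and Slc1a3 (adjusted p = 0.237) did not pass. Slc6a9 encodes the glycine carrier GLYT1, which developing red cells also use. It was at 20.3 and 18.6 CPM in articular cartilage, against 5.88 and 4.25 CPM in xiphoid cartilage, or 3.82-fold higher in articular cartilage (adjusted p = 6.28e-05). Of the erythroid and marrow markers, 7 of 8 tested were higher in the same libraries. Their list summed to 157 and 164 CPM in articular against 15.6 and 19.0 CPM in xiphoid cartilage. It also holds Mpo and Elane, which are not erythroid genes. Mpo did not pass (adjusted p = 0.24) and gave 9.29 and 12.6 CPM of the xiphoid sums. The erythroid gene Alas2 was at 70.1 and 72.1 CPM in articular against 4.12 and 2.47 CPM in xiphoid cartilage. The part of such cells in the Slc6a9 difference was not tested.

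Of carriers of cationic amino acids such as arginine and lysine, Slc7a1, Slc7a2 and Slc7a6 were higher in articular cartilage. Slc7a1 encodes the widespread carrier CAT1. It had 35.9 and 35.1 CPM in articular cartilage, against 14.0 and 17.5 CPM in xiphoid cartilage (log2 change 1.17 ± 0.19, adjusted p = 0.000346). Slc7a2 encodes the carrier CAT2 of liver and activated macrophages. It stood at 25.0 and 18.4 CPM in articular cartilage, against 8.47 and 8.22 CPM in xiphoid cartilage (log2 change 1.38 ± 0.24, adjusted p = 0.000468). Slc7a6 encodes a light chain that exchanges arginine against neutral amino acids. It was at 24.4 and 22.1 CPM in articular cartilage, against 13.4 and 10.8 CPM in xiphoid cartilage (log2 change 0.94 ± 0.21, adjusted p = 0.00315). Each had both articular libraries above both xiphoid libraries. The related light chain Slc7a7 was at 8.61 and 8.99 CPM in articular and 6.47 and 4.93 CPM in xiphoid cartilage and did not pass (adjusted p = 0.0944). The cationic carrier Slc7a3 had 9 counts in articular against 1 in xiphoid cartilage and was not tested, and their family member Slc7a4 was called toward xiphoid cartilage (given below). These genes were set together after their values were seen.

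The light chains of the Slc7 family reach the membrane bound to the heavy chain Slc3a2, also called CD98, which was at 104 and 106 CPM in articular cartilage, against 76.6 and 91.5 CPM in xiphoid cartilage, and did not pass (log2 change 0.32 ± 0.15, adjusted p = 0.103). Slc7a5 encodes the light chain LAT1, which imports leucine and other large neutral amino acids. It had 19.1 and 15.2 CPM in articular cartilage, against 7.17 and 10.4 CPM in xiphoid cartilage (log2 change 0.97 ± 0.26, adjusted p = 0.008). Its adjusted p was 0.0802 with xiphoid replicate 1 left out. Slc7a11, the cystine importer xCT that feeds glutathione synthesis, was low throughout, at 3.83 and 3.21 CPM in articular cartilage, against 0.470 and 0 CPM in xiphoid cartilage, or 57 against 4 counts (adjusted p = 0.00137). Its fitted log2 fold change of 3.73 rested on those few xiphoid counts and was 7.79 with xiphoid replicate 1 left out and 2.88 with xiphoid replicate 2 left out. In the other direction, Slc7a10, the small neutral amino acid exchanger Asc-1, also known as a surface marker of white fat cells, had 1 count in articular and 189 in xiphoid cartilage. The count ratio toward xiphoid cartilage was 193, with an exact 95% interval of 34.2 to 7666 for counting error only (adjusted p = 1.26e-06). Its fitted log2 change was -9.55 with articular replicate 1 left out and -6.46 with articular replicate 2 left out. Slc7a15 had no count in articular cartilage and 87 in xiphoid cartilage, and so was at least 29.6-fold higher there, against 3 counts over both articular libraries (adjusted p = 3.04e-05). The xiphoid libraries also held the higher adipocyte markers (values above), whose part was not tested.

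Further amino acid carriers were called toward xiphoid cartilage. Slc16a10, TAT1, a carrier of tryptophan, tyrosine and phenylalanine, was at 5.74 and 7.45 CPM in articular cartilage, against 34.8 and 35.8 CPM in xiphoid cartilage, or 5.35-fold higher in xiphoid cartilage (log2 change -2.42 ± 0.22, adjusted p = 2.44e-06). Slc43a2, LAT4, a carrier of leucine, methionine and phenylalanine, was at 8.01 and 7.45 CPM in articular cartilage, against 21.5 and 23.6 CPM in xiphoid cartilage (log2 change -1.54 ± 0.22, adjusted p = 0.000112), and its paralogue Slc43a1 at 18.4 and 17.5 CPM in articular cartilage, against 27.3 and 24.0 CPM in xiphoid cartilage (adjusted p = 0.0427). The call of Slc43a1 was not stable, with an adjusted p of 0.0613 with upper-quartile factors, 0.0538 with a mean CPM of at least 5, 0.127 with DESeq2, 0.0795 with articular replicate 2 left out, 0.311 with xiphoid replicate 1 left out and 0.108 with xiphoid replicate 2 left out. Slc6a6 encodes the taurine carrier. It stood at 53.8 and 52.1 CPM in articular and 39.5 and 43.6 CPM in xiphoid cartilage and did not pass (adjusted p = 0.0845). The remaining xiphoid calls, Slc36a2, Slc6a15 and Slc7a4, were all under 11 CPM. For Slc6a15 the adjusted p became 0.0959 with DESeq2, 0.0882 with articular replicate 1 left out, 0.0679 with articular replicate 2 left out, 0.124 with xiphoid replicate 1 left out and 0.0887 with xiphoid replicate 2 left out. For Slc7a4 it became 0.0789 with DESeq2, 0.0549 with articular replicate 1 left out, 0.0706 with articular replicate 2 left out and 0.356 with xiphoid replicate 2 left out. For Slc36a2 it became 0.0745 with xiphoid replicate 2 left out. The low articular calls were Slc6a17, at 6.82 and 7.32 CPM in articular against 3.06 and 3.01 CPM in xiphoid cartilage, and Slc36a1, at 4.43 and 3.72 CPM in articular against 2.12 and 1.64 CPM in xiphoid cartilage, whose adjusted p was 0.149 with DESeq2, 0.0502 with limma-voom, 0.184 with articular replicate 1 left out, 0.0744 with articular replicate 2 left out, 0.0862 with xiphoid replicate 1 left out and 0.193 with xiphoid replicate 2 left out.

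Of 16 listed genes of amino acid use, all tested, 7 were called toward articular and 5 toward xiphoid cartilage. Atf4 encodes the transcription factor that induces many amino acid carriers when amino acids are scarce. It was at 1265 and 1252 CPM in articular cartilage, against 257 and 277 CPM in xiphoid cartilage, or 4.71-fold higher in articular cartilage (adjusted p = 1.76e-07). Its target Chac1 was at 32.8 and 30.1 CPM in articular cartilage, against 8.23 and 6.71 CPM in xiphoid cartilage (adjusted p = 8.65e-06), while its target Asns, asparagine synthetase, was at 37.8 and 55.7 CPM in articular and 29.5 and 41.1 CPM in xiphoid cartilage and did not pass (adjusted p = 0.143). The adjusted p of Asns was 0.0091 with the replicate block, while it did not pass with DESeq2, limma-voom or the other scalings and filters. Its log2 change was 0.41 on all libraries, 0.66 with articular replicate 1 left out and 0.67 with xiphoid replicate 2 left out. Psat1, an enzyme of serine synthesis that is also a known target, was higher in xiphoid cartilage, at 10.8 and 14.8 CPM in articular against 28.2 and 32.6 CPM in xiphoid cartilage (adjusted p = 0.00048). The glutaminase Gls2, which breaks glutamine down, was at 34.8 and 32.6 CPM in articular against 10.9 and 7.53 CPM in xiphoid cartilage (adjusted p = 2.77e-05). Glul makes glutamine. It had 83.6 and 83.6 CPM in articular cartilage, against 378 and 366 CPM in xiphoid cartilage (a 4.45-fold excess in xiphoid cartilage, adjusted p = 1.66e-07). The branched-chain aminotransferases split, the cytosolic Bcat1 at 779 and 932 CPM in articular against 262 and 318 CPM in xiphoid cartilage (adjusted p = 9.39e-06) and the mitochondrial Bcat2 at 37.7 and 40.7 CPM in articular against 152 and 151 CPM in xiphoid cartilage (adjusted p = 7.04e-07).

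**Figure D4:**
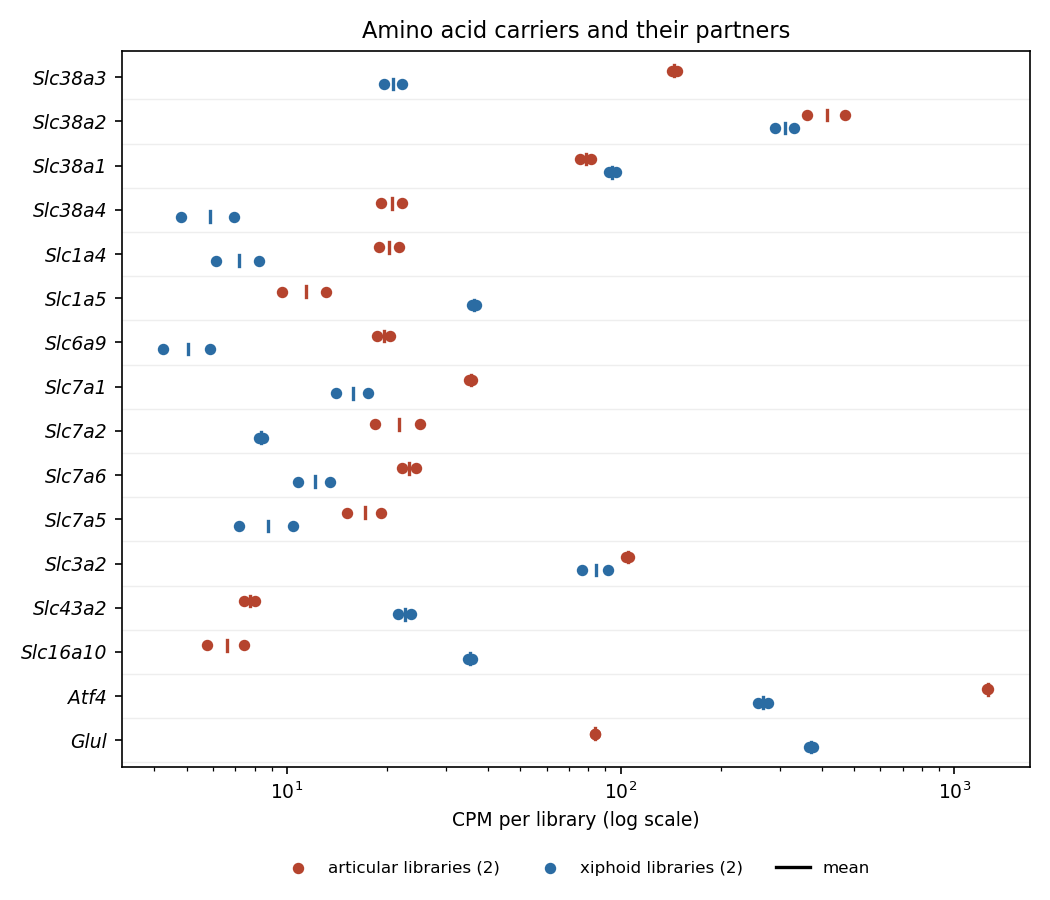
CPM of each library on a log axis for amino acid carriers and their partners, with articular libraries above xiphoid libraries for each gene and the mean as a bar. Slc38a3, Slc1a4, Slc7a1, Slc7a2, Slc7a6 and Atf4 lie higher in articular cartilage, and Slc1a5, Slc43a2, Slc16a10 and Glul higher in xiphoid cartilage.

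The plasma membrane phosphate importers tested, Slc20a1 and Slc20a2, did not pass in either direction. Slc20a1 (Entrez gene 81826) encodes PiT-1, a sodium-phosphate importer of mineralizing chondrocytes and most other cells. It stood at 62.4 and 57.5 CPM in articular cartilage, against 53.2 and 51.4 CPM in xiphoid cartilage (log2 change 0.20 ± 0.15, adjusted p = 0.307). Slc20a2, PiT-2, was at 15.6 and 12.8 CPM in articular cartilage, against 19.6 and 17.3 CPM in xiphoid cartilage (log2 change -0.38 ± 0.22, adjusted p = 0.167). The libraries did not overlap for either gene, but the differences were small. Slc25a3 carries phosphate into mitochondria. It was at 317 and 354 CPM in articular cartilage, against 508 and 592 CPM in xiphoid cartilage, or 1.64-fold higher in xiphoid cartilage (log2 change -0.71 ± 0.15, adjusted p = 0.00202), and its adjusted p was 0.0505 with xiphoid replicate 2 left out. The kidney-type carriers Slc34a1 and Slc34a3 had 1 count or fewer in each tissue and were not tested. Thus 1 of 3 tested members of the phosphate list was called, with a list median of -0.38. The phosphate exporter Xpr1 is not among them and is given with the partners below.

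The enzymes and exporters that set phosphate and pyrophosphate outside the cell, 5 of 5 tested, were higher in articular cartilage. Among all genes 25% were called in that direction. Alpl encodes the phosphatase that releases phosphate from pyrophosphate. It had 931 and 907 CPM in articular cartilage, against 7.17 and 7.95 CPM in xiphoid cartilage (adjusted p = 1.31e-10). Phospho1, which releases phosphate inside matrix vesicles, was at 470.4 and 525 CPM in articular cartilage, against 31.6 and 34.2 CPM in xiphoid cartilage (adjusted p = 3.00e-09). Enpp1 makes pyrophosphate. It stood at 273 and 327 CPM in articular against 166 and 159 CPM in xiphoid cartilage (adjusted p = 0.000399), and Ankh, which lets out its precursor, at 352 and 401 CPM in articular against 232 and 245 CPM in xiphoid cartilage (adjusted p = 0.00244). Xpr1 encodes the phosphate exporter. It was at 14.5 and 11.7 CPM in articular against 7.53 and 6.16 CPM in xiphoid cartilage (adjusted p = 0.0112), with an adjusted p of 0.0658 with xiphoid replicate 2 left out. Osteoblasts express Alpl and Phospho1 too, and 6 of 7 osteoblast markers were higher in the same libraries (values above); their part was not tested. Slc13a5, a citrate importer known from liver and bone, had 36.6 and 28.3 CPM in articular cartilage, against 2.35 and 2.19 CPM in xiphoid cartilage, or 14.2-fold higher in articular cartilage (log2 change 3.82 ± 0.27, adjusted p = 2.69e-07).

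The main sulfate importer did not pass, whereas the PAPS carrier did. Slc26a2 (Entrez gene 117267) encodes the sulfate importer whose loss causes diastrophic dysplasia in humans. It had 182 and 189 CPM in articular cartilage, against 197 and 182 CPM in xiphoid cartilage. The libraries of the tissues overlapped (log2 change -0.03 ± 0.14, adjusted p = 0.873). Slc35b2 brings PAPS into the Golgi. It stood at 82.4 and 79.8 CPM in articular cartilage, against 141 and 172 CPM in xiphoid cartilage, or 1.93-fold higher in xiphoid cartilage (log2 change -0.95 ± 0.16, adjusted p = 0.000334). Papss2 makes PAPS. It was at 427 and 564 CPM in articular cartilage, against 1183 and 1355 CPM in xiphoid cartilage, likewise higher in xiphoid cartilage (adjusted p = 4.31e-05), while Papss1 was at 117 and 109 CPM in articular and 138 and 143 CPM in xiphoid cartilage and did not pass (adjusted p = 0.093). Impad1, which clears the spent donor in the Golgi, went the other way, at 225 and 316 CPM in articular cartilage, against 80.5 and 100.1 CPM in xiphoid cartilage (adjusted p = 2.47e-05). Of 4 tested sulfate and PAPS carriers, 2 were called, both toward xiphoid cartilage. The other call, Slc26a6, an anion exchanger of oxalate, chloride and sulfate, was at 11.7 and 9.89 CPM in articular against 16.0 and 16.9 CPM in xiphoid cartilage, with an adjusted p of 0.0422 that became 0.0596 with upper-quartile factors, 0.0508 with a mean CPM of at least 5, 0.132 with DESeq2, 0.139 with articular replicate 2 left out, 0.127 with xiphoid replicate 1 left out and 0.184 with xiphoid replicate 2 left out. Slc26a1 did not pass (adjusted p = 0.534).

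Golgi nucleotide sugar carriers supply the building blocks of glycosaminoglycan chains. The list used here is wider, holding for example the CMP-sialic acid carrier Slc35a1, and the substrates of its members were not checked. All 12 listed members in the table were tested. Of them 2 were called toward articular cartilage and 3 toward xiphoid cartilage, while 7 did not pass, with a median of 0.03. Slc35a3 encodes a carrier of UDP-N-acetylglucosamine mutated in a vertebral malformation of cattle. It had 51.1 and 74.8 CPM in articular cartilage, against 18.6 and 20.3 CPM in xiphoid cartilage, or 3.24-fold higher in articular cartilage (log2 change 1.69 ± 0.21, adjusted p = 2.96e-05). Slc35d1 carries UDP-glucuronic acid and UDP-N-acetylgalactosamine for chondroitin sulfate, and its loss causes a lethal human skeletal dysplasia. It stood at 51.9 and 61.4 CPM in articular cartilage, against 30.3 and 36.6 CPM in xiphoid cartilage (log2 change 0.76 ± 0.17, adjusted p = 0.00323). Slc35b4 encodes a carrier of UDP-xylose and UDP-N-acetylglucosamine. It was at 54.7 and 58.4 CPM in articular cartilage, against 127 and 125 CPM in xiphoid cartilage, or 2.23-fold higher in xiphoid cartilage (log2 change -1.16 ± 0.15, adjusted p = 4.75e-05). The UDP-galactose carrier Slc35a2 was at 67.9 and 66.3 CPM in articular and 59.5 and 67.3 CPM in xiphoid cartilage (adjusted p = 0.684), and the CMP-sialic acid carrier Slc35a1 did not pass either (adjusted p = 0.374). The 2 small xiphoid calls were Slc35a4, whose adjusted p was 0.0683 with articular replicate 1 left out and 0.302 with xiphoid replicate 2 left out, and Slc35c2, whose adjusted p was 0.0771 with DESeq2, 0.0637 with xiphoid replicate 1 left out and 0.318 with xiphoid replicate 2 left out. Slc35a5, Slc35e3, Slc35b1, Slc35c1 and Slc35d2 did not pass. Slc35e1 encodes a Slc35 member outside the list and of uncertain substrate. It had 157 and 155 CPM in articular cartilage, against 56.3 and 58.4 CPM in xiphoid cartilage (log2 change 1.44 ± 0.15, adjusted p = 7.02e-06).

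Zinc carriers fall into importers to the cytosol (Slc39) and exporters from it or into organelles (Slc30). Slc39a8 (Entrez gene 295455), ZIP8, an importer of zinc and manganese that mouse studies tie to matrix-degrading enzymes in chondrocytes, was at 92.6 and 116 CPM in articular cartilage, against 20.7 and 19.7 CPM in xiphoid cartilage. It was 5.14-fold higher in articular cartilage (log2 change 2.36 ± 0.18, adjusted p = 4.44e-07), the largest change of the list, and the libraries lay far apart. Slc30a9 encodes a mitochondrial zinc carrier. It stood at 51.3 and 63.2 CPM in articular cartilage, against 28.5 and 22.9 CPM in xiphoid cartilage (log2 change 1.15 ± 0.18, adjusted p = 0.000259). Slc30a4 loads zinc into vesicles. It was at 27.9 and 31.5 CPM in articular cartilage, against 16.9 and 12.2 CPM in xiphoid cartilage (log2 change 1.02 ± 0.21, adjusted p = 0.00187). Slc30a1 encodes the zinc exporter of the plasma membrane. It had 7.90 and 6.29 CPM in articular and 9.17 and 9.73 CPM in xiphoid cartilage and did not pass (adjusted p = 0.233). Slc39a7, which releases zinc from the endoplasmic reticulum, overlapped between tissues, at 247 and 192 CPM in articular and 199 and 168 CPM in xiphoid cartilage (adjusted p = 0.214).

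Of 17 tested zinc carriers, 5 were called toward articular and 2 toward xiphoid cartilage and 10 did not pass, with a median of 0.05. Together 41.2% were called, against 49.5% of all genes. The remaining calls were small, and each was lost when certain libraries were left out. Slc39a14, ZIP14, an importer of zinc, iron and manganese, was at 96.5 and 109 CPM in articular cartilage, against 74.9 and 77.0 CPM in xiphoid cartilage (log2 change 0.43 ± 0.15, adjusted p = 0.0308). Its adjusted p became 0.0582 with DESeq2, 0.0973 with articular replicate 2 left out, 0.199 with xiphoid replicate 1 left out and 0.153 with xiphoid replicate 2 left out. Slc39a9 was at 9.09 and 10.8 CPM in articular against 6.82 and 4.52 CPM in xiphoid cartilage (adjusted p = 0.0423), becoming 0.111 with DESeq2, 0.133 with articular replicate 2 left out and 0.261 with xiphoid replicate 2 left out. On the xiphoid side, Slc39a1 was at 134 and 116 CPM in articular against 165 and 174 CPM in xiphoid cartilage (adjusted p = 0.0255), becoming 0.0985 with articular replicate 2 left out, 0.121 with xiphoid replicate 1 left out and 0.215 with xiphoid replicate 2 left out. Slc39a13, ZIP13, whose loss causes a human connective tissue and skeletal disorder, was at 57.1 and 44.8 CPM in articular against 68.4 and 69.5 CPM in xiphoid cartilage (adjusted p = 0.0459), becoming 0.0502 with RLE factors, 0.0775 with upper-quartile factors, 0.0591 with a mean CPM of at least 5, 0.102 with DESeq2, 0.0603 with ribosomal RNA rows left out, 0.227 with articular replicate 2 left out, 0.171 with xiphoid replicate 1 left out and 0.196 with xiphoid replicate 2 left out.

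The 3 metallothioneins measured, which encode small zinc-binding proteins, were higher in articular cartilage. Mt1 was at 102 and 192 CPM in articular cartilage, against 19.0 and 29.0 CPM in xiphoid cartilage (adjusted p = 0.000463), Mt2A at 118 and 156 CPM in articular against 57.1 and 74.9 CPM in xiphoid cartilage (adjusted p = 0.000566) and Mt3 at 63.0 and 81.9 CPM in articular against 0.823 and 1.51 CPM in xiphoid cartilage (adjusted p = 1.03e-08). The articular libraries differed in Mt1 but both lay above the xiphoid pair. Mtf1 encodes the metal sensor that induces Mt1 and Mt2A. It was at 8.73 and 9.50 CPM in articular and 10.1 and 10.5 CPM in xiphoid cartilage and did not pass (adjusted p = 0.579). The letters TGCNCNC, a looser form of the metal response element core, were found on either strand in 10 of 19 zinc carrier promoters. That is 52.6%, against 50.1% of all promoters.

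**Figure D5:**
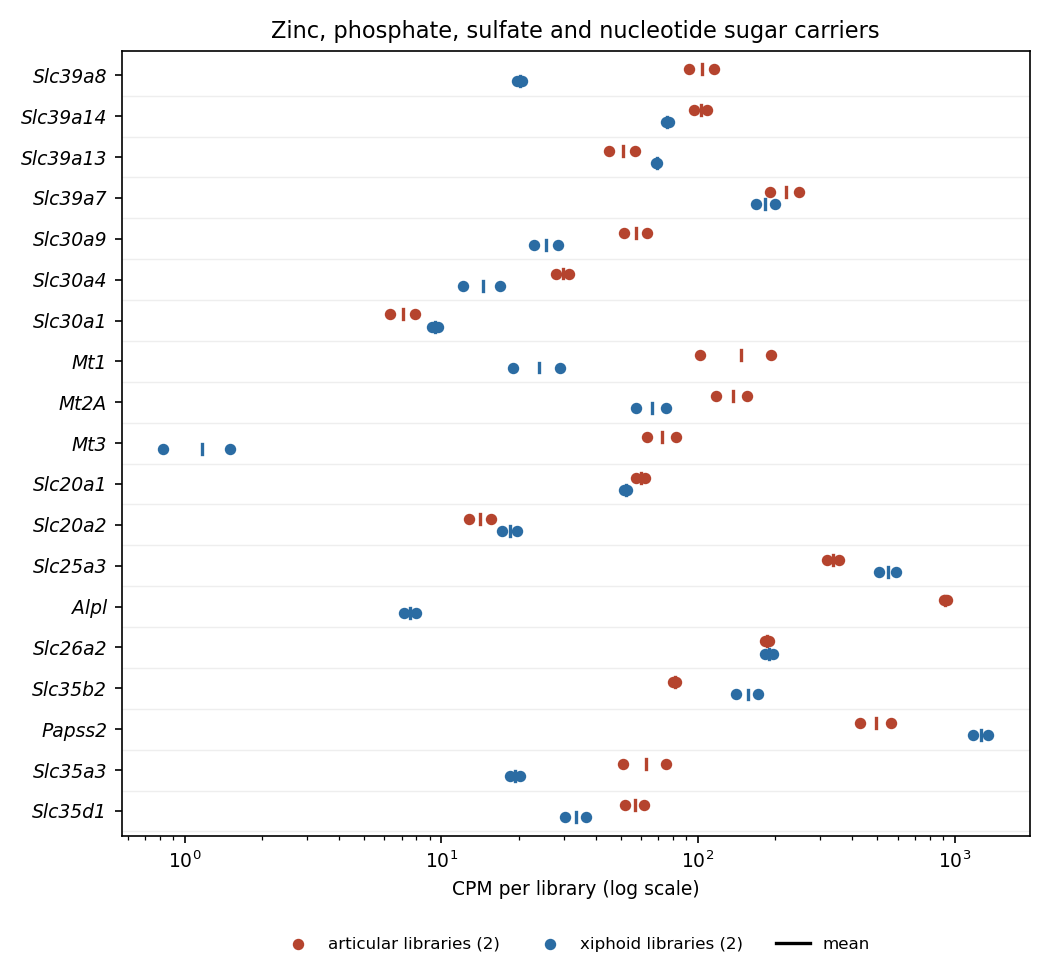
CPM of each library on a log axis for zinc, phosphate, sulfate and nucleotide sugar carriers and related genes, with articular libraries above xiphoid libraries for each gene and the mean as a bar. Slc39a8, the metallothioneins and Alpl lie far higher in articular cartilage, Slc26a2 overlaps between tissues, and Slc35b2 and Papss2 lie higher in xiphoid cartilage.

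The mitochondrial carriers of the Slc25 family, the largest family in the table, were called more often toward xiphoid than toward articular cartilage. Of 33 tested, 2 were called toward articular and 16 toward xiphoid cartilage; 15 did not pass. Among all genes 25% and 24.5% were called in those directions. The family's median log2 fold change was -0.55, against -0.02 over all genes. Slc25a4 encodes the ADP-ATP exchanger of heart and skeletal muscle. It stood at 396 and 320.5 CPM in articular cartilage, against 688 and 629 CPM in xiphoid cartilage (log2 change -0.88 ± 0.16, adjusted p = 0.000611), and its widespread paralogue Slc25a5 at 100.2 and 95.2 CPM in articular cartilage, against 133 and 152 CPM in xiphoid cartilage (log2 change -0.55 ± 0.15, adjusted p = 0.00948), with an adjusted p of 0.17 with xiphoid replicate 2 left out. The paralogues are similar in sequence, so reads can be split between them. Slc25a20 brings acylcarnitines in for fat oxidation. It was at 42.1 and 37.9 CPM in articular cartilage, against 76.3 and 85.6 CPM in xiphoid cartilage (log2 change -1.02 ± 0.16, adjusted p = 0.00022). The citrate carrier Slc25a1 (63.4 and 65.2 CPM in articular against 105 and 115 CPM in xiphoid cartilage, adjusted p = 0.00104) and the glutamate carrier Slc25a22 (15.7 and 16.8 CPM in articular against 53.6 and 66.6 CPM in xiphoid cartilage, adjusted p = 4.86e-06) were higher in xiphoid cartilage as well. The largest xiphoid changes were in low genes: Slc25a35 had 3 against 64 counts, a ratio toward xiphoid cartilage of 21.8, with an exact 95% interval of 7.13 to 108 for counting error only. Its fitted log2 change was -3.61 with xiphoid replicate 2 left out. Slc25a34 was at 0.598 and 0.257 CPM in articular against 5.06 and 3.97 CPM in xiphoid cartilage (adjusted p = 0.000404), with a log2 change of -3.34 that was -4.06 with articular replicate 1 left out. On the articular side, Slc25a37, mitoferrin-1, the iron importer of developing red cells, was at 10.9 and 8.48 CPM in articular cartilage, against 3.65 and 2.60 CPM in xiphoid cartilage (log2 change 1.62 ± 0.33, adjusted p = 0.00137), and Slc25a46 was at 32.4 and 40.8 CPM in articular against 23.0 and 21.5 CPM in xiphoid cartilage (adjusted p = 0.00787), becoming 0.0515 with xiphoid replicate 2 left out. Slc25a38 and Slc25a39, listed below with Slc25a37 as known from marrow, blood or osteoclasts, did not pass (adjusted p = 0.379 and 0.536). Markers of skeletal muscle, a tissue rich in mitochondria, were higher in xiphoid cartilage. Erythroid markers such as Alas2 were higher in articular cartilage (values above). The part of either cell type was not tested.

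Every tested member of the Slc27 family of fatty acid carriers, 4 of 4, was higher in xiphoid cartilage. Slc27a6, known from heart, was at 4.67 and 5.39 CPM in articular cartilage, against 92.1 and 70.7 CPM in xiphoid cartilage, or 16.2-fold higher in xiphoid cartilage (log2 change -4.02 ± 0.22, adjusted p = 2.70e-08). Slc27a1, known from muscle and fat, was at 49.9 and 54.7 CPM in articular cartilage, against 87.8 and 97.7 CPM in xiphoid cartilage (log2 change -0.83 ± 0.15, adjusted p = 0.00082). Slc27a3 was at 15.2 and 12.5 CPM in articular against 38.3 and 36.6 CPM in xiphoid cartilage (adjusted p = 7.18e-05) and Slc27a4 at 23.1 and 21.1 CPM in articular against 34.5 and 32.9 CPM in xiphoid cartilage (adjusted p = 0.014), becoming 0.115 with xiphoid replicate 1 left out and 0.0682 with xiphoid replicate 2 left out. The Slc25 and Slc27 families were singled out after their values were seen. The xiphoid libraries also held the higher muscle and adipocyte markers, whose part was not tested.

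Carriers listed as known from muscle or fat were mostly higher in xiphoid cartilage, 10 of 14 tested, with 2 higher in articular cartilage and a median of -0.91. Among all genes 24.5% were called toward xiphoid cartilage. The list was drawn up with earlier results of these data known, so its count is not independent evidence of cell origin. It also holds carriers not particular to muscle or fat, such as Slc38a4. The xiphoid calls were those of Slc2a4, Slc7a10, Slc25a4, Slc25a20, Slc25a34, Slc25a1, Slc27a1, Slc36a2, Slc5a6 and Slc47a1. The call of Slc47a1, at 0.479 and 0 CPM in articular against 3.06 and 1.51 CPM in xiphoid cartilage, was lost with xiphoid replicate 1 left out (adjusted p = 0.137), and its log2 change of -3.15 was -7.19 and -2.23 with articular replicates 1 and 2 left out. The exceptions were Slc38a4, given above, and Slc8a3, the sodium-calcium exchanger NCX3 of muscle and brain. Slc8a3 was at 140.1 and 133 CPM in articular cartilage, against 19.5 and 13.7 CPM in xiphoid cartilage, or 8.17-fold higher in articular cartilage (log2 change 3.03 ± 0.19, adjusted p = 1.00e-07). In those libraries the muscle markers summed to 34.5 and 24.8 CPM, against 8678 and 8799 CPM in xiphoid cartilage. Of carriers listed as known from marrow, blood or osteoclasts, 5 of 13 tested were higher in articular cartilage and 0 in xiphoid cartilage, with a median of 0.18. That is 38.5% toward articular cartilage, against 25% of all genes, in a list likewise drawn up with earlier results known. Slc37a2 encodes a sugar-phosphate exchanger of macrophages and osteoclasts. It had 45.1 and 49.6 CPM in articular cartilage, against 3.53 and 3.56 CPM in xiphoid cartilage (log2 change 3.73 ± 0.22, adjusted p = 5.97e-08). Slc9b2 encodes a sodium-proton exchanger of osteoclasts. It stood at 9.57 and 5.14 CPM in articular against 0.706 and 0.274 CPM in xiphoid cartilage (adjusted p = 0.000123), its log2 fold change of 3.83 being 4.68 with xiphoid replicate 1 left out. Slc11a1 encodes the metal carrier of phagocytes. It was at 1.91 and 3.60 CPM in articular against 0.235 and 0.411 CPM in xiphoid cartilage (adjusted p = 0.00332); Slc6a9 and Slc25a37 were the remaining calls. Neutrophil and osteoclast markers were higher in the same articular libraries. The iron exporter Slc40a1, which macrophages carry, overlapped between tissues, at 46.8 and 70.4 CPM in articular and 54.9 and 60.8 CPM in xiphoid cartilage (adjusted p = 0.952), and of 8 macrophage markers 2 were called toward articular and 1 toward xiphoid cartilage.

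Members outside these lists, 103 of the tested, held 19 articular and 34 xiphoid calls; the following were chosen after their values were seen. Slc6a12 encodes the carrier of the osmolyte betaine and of GABA. It had 37.1 and 35.7 CPM in articular cartilage, against 119 and 110.4 CPM in xiphoid cartilage, or 3.16-fold higher in xiphoid cartilage (log2 change -1.66 ± 0.15, adjusted p = 3.03e-06). Slc12a2 encodes the sodium-potassium-chloride importer NKCC1 that helps cells regain volume. It stood at 45.5 and 63.7 CPM in articular cartilage, against 136 and 153 CPM in xiphoid cartilage (log2 change -1.40 ± 0.18, adjusted p = 4.80e-05). Slc9a9 encodes an endosomal sodium-proton exchanger. It was at 4.67 and 3.34 CPM in articular cartilage, against 25.2 and 26.4 CPM in xiphoid cartilage (log2 change -2.68 ± 0.25, adjusted p = 3.25e-06). Slc4a7 encodes a sodium-bicarbonate importer. It had 26.4 and 31.9 CPM in articular cartilage, against 10.6 and 9.73 CPM in xiphoid cartilage (log2 change 1.52 ± 0.21, adjusted p = 8.88e-05), and the anion exchanger Slc4a2 overlapped at 74.8 and 57.4 CPM in articular and 71.5 and 60.7 CPM in xiphoid cartilage. Slc23a2 encodes the ascorbate importer that supplies the cofactor of collagen hydroxylation. It stood at 65.1 and 64.6 CPM in articular cartilage, against 32.0 and 32.7 CPM in xiphoid cartilage, or 2.00-fold higher in articular cartilage (log2 change 1.00 ± 0.16, adjusted p = 0.000222).

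Of the choline and nucleoside carriers described here, members were called in each direction. Slc44a1 encodes a choline carrier. It was at 176 and 195 CPM in articular cartilage, against 86.9 and 98.9 CPM in xiphoid cartilage (log2 change 1.00 ± 0.15, adjusted p = 0.000167), and its relative Slc44a2 moved the other way, at 196 and 221 CPM in articular cartilage, against 313 and 376 CPM in xiphoid cartilage (log2 change -0.72 ± 0.15, adjusted p = 0.00192), becoming 0.0518 with xiphoid replicate 2 left out. The nucleoside carriers Slc29a1, at 205 and 238 CPM in articular cartilage, against 145 and 152 CPM in xiphoid cartilage (log2 change 0.58 ± 0.15, adjusted p = 0.00594), and Slc29a2, at 15.2 and 14.5 CPM in articular against 2.70 and 4.79 CPM in xiphoid cartilage (adjusted p = 0.000192), were higher in articular cartilage, and the adjusted p of Slc29a1 was 0.074 with xiphoid replicate 1 left out. Their relative Slc29a3 was higher in xiphoid cartilage, at 5.14 and 5.65 CPM in articular against 10.6 and 9.73 CPM in xiphoid cartilage (adjusted p = 0.0156), becoming 0.0603 with DESeq2 and 0.0848 with xiphoid replicate 1 left out. The nucleoside carrier Slc28a2 was at 4.79 and 6.81 CPM in articular against 9.41 and 7.95 CPM in xiphoid cartilage and did not pass (adjusted p = 0.124). Slc6a8 encodes the creatine carrier. It had 56.5 and 58.4 CPM in articular cartilage, against 100.2 and 102 CPM in xiphoid cartilage (log2 change -0.82 ± 0.15, adjusted p = 0.000668) and was higher in xiphoid cartilage. Slc22a3, a carrier of organic cations, was low in articular cartilage, at 0.479 and 0.514 CPM in articular against 9.52 and 8.36 CPM in xiphoid cartilage (adjusted p = 9.98e-06).

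The 77 untested members were low in both tissues, with at most 21 counts over the 2 libraries of a tissue and a median of 4 counts over all 4 libraries. They included carriers known from kidney or gut such as Slc34a1, Slc12a1, Slc12a3, Slc5a9 and Slc22a12. Of them 18 had no count in articular and 16 no count in xiphoid cartilage, which at this depth allows up to 3 counts over both libraries of a tissue. Against that floor Slc1a7, a glutamate carrier of the retina, with 0 counts in articular and 20 in xiphoid cartilage, was at least 6.81-fold higher in xiphoid cartilage, without a test in the filtered table. For those with 3 counts or fewer in each tissue a difference was not detectable. Gene spans of 31 tested members overlap another coding gene of the table in the RefSeq annotation. Of these, 3 that were named as called have a neighbour called in the same direction. Slc7a10 overlaps Lrp3 (log2 fold change -3.10), Slc25a35 overlaps Rangrf (-1.24) and Slc27a1 overlaps Pgls (-0.53). Slc16a3 overlaps Csnk1d, which did not pass (log2 fold change 0.06). Slc25a22 and Slc26a6 overlap genes that were not tested. Of named members that did not pass, Slc2a10 overlaps Elmo2, which was called toward xiphoid cartilage, and Slc26a1, Slc39a7, Slc40a1, Slc2a6 and Slc35a1 overlap genes that did not pass. Whole gene spans were compared, not exons, and the sources used here do not give the strand setting of the counting. Whether reads of such pairs were mixed was not determined.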

How the data were processed

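The deposited table held an expected count (an estimate that can be fractional) per gene and library and was not normalized, per the file headers. The submitters' processing notes name RSEM 1.2.12, StringTie 1.2.1, HISAT2 2.0.4 and Bowtie2 2.2.6 and the build rn6, without saying what each did. Of the values 3.91% were not whole, and all were rounded. Transcript lengths were not used here, so levels of different genes were not compared.

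Genes were filtered with filterByExpr by tissue (a cutoff of 1.24 CPM), scaled by TMM and tested with edgeR 4.0.16 (quasi-likelihood, robust, R 4.3.3) on all 4 libraries, with tissue as the model's term and 2 residual degrees of freedom. Each gene's spread was moderated toward that of all genes, with a median of 10 prior degrees of freedom. The p-values are 2-sided and were adjusted over 11202 genes at 0.05. The standard error is the size of the log2 fold change over the square root of F. Library totals limit precision for low genes: 3 counts over both libraries of a tissue served as the floor for a count of 0, and ratios with 1 to 3 counts carry exact 95% binomial intervals. Floors and intervals cover counting error only.

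The members, lists and tests were chosen with earlier results of these data known, and no list is independent evidence of its direction. Named genes were the 6 members with the largest change in each direction among those called with 10 CPM or more in the higher tissue and no overlap, up to 6 per list by adjusted p, 24 carriers named by hand and the 10 members with the highest CPM. All others were named after their values were seen. On simulated data the procedure recovered 73% of 2-fold and 98% of 4-fold changes, so smaller differences that did not pass may have been missed. Promoters are RefSeq windows of build GRCr8, found for 226 of 290 members and read for motifs on both strands. Alternatives were other scalings, filters, DESeq2 1.42.0, limma-voom 3.58.1, a replicate block, and fits with each library, the listed cell markers or the ribosomal RNA rows left out. A few genes are not reported here.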

Additional observations from a re-analysis of the deposited data

How the results depend on the processing

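Of the 110 called members, 77 kept their call under every alternative that gave them a value, and no call changed direction. Leaving out 1 library gave 39 to 49 articular and 47 to 65 xiphoid calls, DESeq2 40 and 53, and a mean CPM of at least 5 gave 39 and 50. The same numbers do not mean the same genes: 102 and 97 of the 110 calls were kept without articular replicates 1 and 2, and 90 and 85 without xiphoid replicates 1 and 2. With 1 library in a tissue, that library is assumed to vary like the other tissue's pair. Over all genes, the main fit gave 2799 articular and 2745 xiphoid calls. DESeq2 gave 2361 and 2290 over all genes, and a mean CPM of at least 5 gave 2312 and 2249.

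Among short lists, sulfate and PAPS carriers had 1 xiphoid call with upper-quartile factors, a mean CPM of at least 5 or DESeq2, and 1 to 2 without 1 library. Zinc carriers had 1 xiphoid call with RLE or upper-quartile factors, a mean CPM of at least 5, DESeq2 or without the ribosomal RNA rows, and 0 to 3 without 1 library; their articular calls were 3 with DESeq2 and 3 to 6 without 1 library. A mean CPM of at least 5, which tests fewer genes, left 5 xiphoid amino acid calls and 3 articular calls of the marrow, blood and osteoclast list. Without 1 library, xiphoid calls were 0 to 1 for phosphate carriers, 1 to 3 for nucleotide sugar carriers and 1 to 2 for the sulfate partners, and articular calls 1 to 2 for glucose use and 1 to 3 for the Slc25 family. Of other changes the cause was not tested.

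The labels do not say that a replicate number marks a shared animal or day. Across genes, same-numbered deviations had a correlation of 0.24. With 2 libraries per tissue, it compares only the difference between the replicates of each tissue. With the replicate block 54 members were called toward articular and 76 toward xiphoid cartilage, with 4 xiphoid zinc calls and 4 articular Slc25 calls. The block raised calls over all genes too, from 2799 to 3344 toward articular and from 2745 to 3484 toward xiphoid cartilage. Other named genes that missed the threshold in the main fit passed with the block as well. Toward articular cartilage these were Slc3a2 (adjusted p = 0.0084), Slc6a6 (0.0153) and Slc39a7 (0.0197). Toward xiphoid cartilage they were Slc38a1 (0.039) and the partner Papss1 (0.0085). The filter at 1.24 CPM, not the test, left 77 members untested.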
